A study of Mus musculus with 9 samples.

Results

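The genes of bone morphogenetic protein (BMP) and transforming growth factor beta (TGF-beta) signalling were examined as possible sites of TWIST1 occupancy in differentiating mouse embryonic stem cells. The set holds 40 genes that were listed by name, 14 ligands, 10 receptors, 8 SMADs and 8 antagonists or regulators, of 21883 protein-coding genes on the main chromosomes. A peak was counted at a gene when its summit lay inside the gene body or, outside all genes, when that gene was the nearest within 100 kb. All positions are on mouse build mm10.

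Ligands of this family signal as dimers through pairs of type I and type II serine/threonine kinase receptors. The activated type I receptor phosphorylates receptor-regulated SMAD proteins, which join SMAD4 and enter the nucleus, while secreted antagonists, inhibitory SMADs and ubiquitin ligases limit the signal. In the embryo the pathway patterns mesoderm, separates neural from epidermal ectoderm and takes part in forming the neural crest, in which TWIST1, a basic helix-loop-helix factor that binds the E-box CANNTG as a dimer, is also active.

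Chromatin immunoprecipitation with sequencing (ChIP-seq) used an antibody against TWIST1 on embryoid bodies, suspended aggregates of differentiating stem cells, that had been differentiated for 3 days. Overexpressing cells (Twist1-OE, here OE) were Twist1-/- and carried a doxycycline-inducible Flag-Twist1. Control cells (Twist1-KO, here KO) were Twist1-/- without the inducible cassette. Both were labelled strain C57BL/6 and received doxycycline for 16 h, so every library comes from cells without the endogenous gene and the OE signal comes from a tagged, induced protein whose level relative to the normal one was not given. Peak lists of 4 OE ChIP libraries, 2 KO ChIP libraries (numbered 2 and 3) and 1 KO input library, sonicated DNA without immunoprecipitation, were used, while inputs of OE cells were not analysed here. In the design text the replicates are called biological and the differentiation neuroepithelial, while the sample labels say embryoid bodies, and peak lists allow no check of either by cell type markers. Embryoid bodies hold mixed cells, so a peak does not tell in which cells, or in what share of them, a site was occupied.

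OE libraries 1 to 4 had lists of 22388, 106821, 87441 and 14160 peaks, KO libraries 2 and 3 had 104 and 71, and the input of KO cells had 1774. Totals of reads were not given in the sources used here. The commonest background pileup that the lists imply (overlapping fragments at a position without enrichment) was 1.00 to 1.20 in OE libraries 1 and 4, 5.29 to 5.38 in OE libraries 2 and 3, 4.73 to 5.09 in the KO libraries and 6.46 in the KO input. OE libraries 2 and 3 thus had 4.41 to 5.38 times the background pileup of OE libraries 1 and 4. Whether they had as many times the reads is unknown. The fold enrichments are the authors' values for single peaks over local background. They serve to rank peaks within a library, and values from several libraries are set beside each other without a test.

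The start of a gene was among the sites at which these genes were occupied, and the sequence there is shown for 5 of them. RefSeq promoter windows on GRCm38.p6, which shares its main chromosome coordinates with mm10, were found for 28 of the 40 genes. Each line gives the 250 bases before an annotated start, 5′ to 3′ on the strand of the gene, in lower case with every CANNTG in capitals. The first 4, of genes that act in BMP signalling inside, on and outside the cell, are chosen examples. They are from the 9 windows of the set with a peak in all 4 OE libraries and none in the KO libraries or input. Bmp6 is shown because its window, with a peak in 3 OE libraries, holds E-boxes of 2 sequences and overlaps a region of all 4 OE libraries. The Bmp4 window, not shown, also had a peak in 3 OE libraries and held 3 E-boxes. It overlapped no region shared by all 4.
Smad5 (chr13:56702760-56703009, plus strand): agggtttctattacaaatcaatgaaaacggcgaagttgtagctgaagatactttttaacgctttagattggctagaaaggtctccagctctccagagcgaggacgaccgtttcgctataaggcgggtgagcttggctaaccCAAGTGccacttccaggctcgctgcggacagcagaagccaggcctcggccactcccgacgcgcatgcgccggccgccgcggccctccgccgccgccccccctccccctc
Smad1 (chr8:79399429-79399678, minus strand): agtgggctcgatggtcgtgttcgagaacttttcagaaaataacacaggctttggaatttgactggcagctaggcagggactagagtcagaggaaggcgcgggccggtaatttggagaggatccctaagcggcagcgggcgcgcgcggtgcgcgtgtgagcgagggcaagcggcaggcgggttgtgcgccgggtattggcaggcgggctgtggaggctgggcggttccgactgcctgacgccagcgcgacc
Bmpr1a (chr14:34502547-34502796, minus strand): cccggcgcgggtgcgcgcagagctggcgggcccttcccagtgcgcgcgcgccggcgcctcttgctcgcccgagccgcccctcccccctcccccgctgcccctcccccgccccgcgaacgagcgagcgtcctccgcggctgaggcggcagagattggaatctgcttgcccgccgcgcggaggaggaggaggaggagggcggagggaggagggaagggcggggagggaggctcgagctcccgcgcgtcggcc
Chrd (chr16:20732877-20733126, plus strand): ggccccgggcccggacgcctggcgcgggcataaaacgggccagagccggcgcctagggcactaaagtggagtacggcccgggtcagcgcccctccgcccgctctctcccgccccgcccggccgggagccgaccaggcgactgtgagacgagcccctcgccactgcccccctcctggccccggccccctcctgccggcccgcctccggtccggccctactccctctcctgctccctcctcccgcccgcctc
Bmp6 (chr13:38345466-38345715, plus strand): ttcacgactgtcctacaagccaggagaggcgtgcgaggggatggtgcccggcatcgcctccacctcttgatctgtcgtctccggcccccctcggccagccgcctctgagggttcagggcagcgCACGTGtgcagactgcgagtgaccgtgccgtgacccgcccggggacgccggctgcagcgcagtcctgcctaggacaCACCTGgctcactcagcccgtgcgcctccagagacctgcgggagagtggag

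In these stretches Smad5, which encodes a receptor-regulated SMAD of the BMP branch, had 1 E-box, CAAGTG, beginning 109 bases before the start. The windows of Smad1, its close relative, and of Bmpr1a, a type I BMP receptor gene, had no CANNTG, and neither had that of Chrd, the gene of the secreted BMP antagonist chordin, before its start. Bmp6 held CACGTG 127 bases and CACCTG 51 bases before its start.

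Searched over 300-base windows (250 before and 50 after the start), a pattern that reads the same on both strands, CANNTG, was found in 15 of 33 windows of these genes, 45.5%, against 72.3% of all 32851 windows in the table. Among windows where all 4 OE libraries, but no control, had a peak, 3 of 9 windows of the pathway genes held it, 33.3%, against 67.7% of 2858 such windows of all genes. Of those 3, 2 are overlapping Smad5 windows that hold the same CAAGTG. Among windows that overlapped a reproducible region at all, 8 of 16 held it, against 63.9% of 4096, a smaller gap. The windows of the pathway genes had a median of 66.3% G and C, against 52.7% over all windows. For the occupied windows these medians were 74.7% and 69.3%. The part of base composition in the difference was not tested.

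Separate forms of the E-box, each counted on both strands and each also a CANNTG, were found as follows. CATCTG or CAGATG stood in 2 windows (6.06%, against 17.2% of all windows), CATATG in 1 (3.03%, against 3.91%), CACCTG or CAGGTG in 4 (12.1%, against 20.2%) and CAGCTG in 4 (12.1%, against 16.3%). All 4 shares were below those of all windows, but each rests on 1 to 4 windows, and Bmpr1b gave more than 1 of the CAGCTG windows. A pair of CANNTG with 5 bases between them was found in 1 window, that of Bmp4, or 3.03%, against 0.767% of all windows. A match describes letters and not a bound site, and only these windows were searched.

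TWIST1 peaks were listed at these genes in every OE library and in neither KO library. The 40 genes together had 79, 350, 293 and 55 peaks in OE libraries 1 to 4, and 0 peaks in each of the 2 KO libraries, with 3 peaks in the KO input. Every OE library was therefore above both KO libraries. Among the OE libraries those with the higher background pileup, 2 and 3, had the most peaks. On the scale of log2(peaks + 1), OE libraries averaged 7.20 ± 1.33 (SD, n = 4) and KO libraries 0 (n = 2), a difference of 7.20. The exact two-sided permutation test over 15 splits gave p = 0.0667, the smallest p this design allows, so the design cannot reach p of 0.05. Such a p marks only that the OE and KO libraries of this series were fully separated, and not the size of the difference.

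A peak was found at 35, 40, 40 and 27 of the 40 genes in OE libraries 1 to 4, or 87.5%, 100%, 100% and 67.5% of them. Over all protein-coding genes the shares were 47.2%, 80.6%, 77.5% and 37.4%, so that in libraries 2 and 3 most genes of any kind had a peak. In KO libraries 2 and 3 a peak was found at 0 of the 40 genes, where 0.21% and 0.096% of all genes had one. Genes with a peak numbered 35.5 ± 6.14 per OE library (SD, n = 4) and 0 per KO library (n = 2), and the exact permutation p was again 0.0667. With so few KO peaks in all, a count of 0 among 40 genes is close to what the background shares give.

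As a share of each library's peaks, those at the 40 genes made up 0.354%, 0.328%, 0.335% and 0.391% in OE libraries 1 to 4 (mean 0.352 ± 0.0281%, SD, n = 4). It was 0% in both KO libraries and 0.183% in the KO input. KO libraries 2 and 3 had only 94 and 62 peaks on the main chromosomes. Lists that short cannot tell a share of 0% from the OE shares. Relative to the size of each list, the OE libraries thus lay close together although their counts did not.

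The KO lists show only what passed the caller's limit. At the commonest background of KO library 2 the weakest listed peak corresponds to a fold of 3.66, and in KO library 3 to a fold of 3.61. Of the 43 regions at these genes that all 4 OE libraries shared, 39 had a fold above the limit for KO library 2 in the equally numbered OE library (90.7%), and 38 of 43 for number 3 (88.4%). Enrichment under these limits would not be listed.

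**Figure D1:**
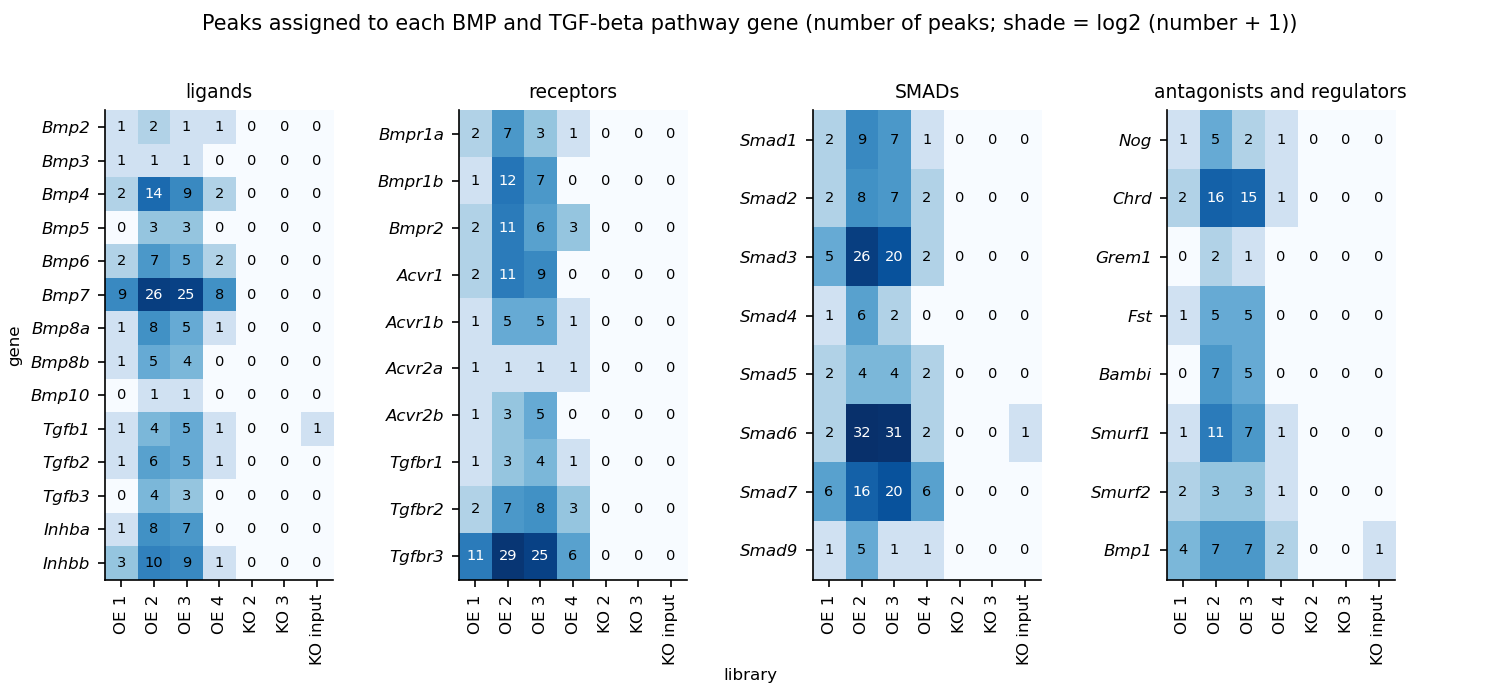
Number of peaks assigned to each of the 40 genes (rows, by role) in each library (columns: 4 OE ChIP, 2 KO ChIP and the KO input). The KO columns hold 0 throughout, the input column holds 1 peak each at Tgfb1, Smad6 and Bmp1, and Smad6, with 32 and 31 peaks in OE libraries 2 and 3, has 2 in each of OE libraries 1 and 4.

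Peaks of the KO input lay at 3 of the 40 genes (7.5%), against 5.28% of all genes. The input peak in Tgfb1, which encodes the founding TGF-beta ligand, had a fold of 3.35 and overlapped peaks of OE libraries 1 and 4. In Smad6, the gene of an inhibitory SMAD of the BMP branch, the input peak had a fold of 2.95 and overlapped peaks of OE libraries 2 and 3. In Bmp1, the gene of a metalloproteinase that cleaves chordin and procollagen, it had a fold of 3.49 and overlapped peaks of OE libraries 1 and 3. No region that all 4 OE libraries shared at these genes was lost because of an input or KO peak.

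Peaks of the OE libraries were joined where they overlapped by 1 bp or more, and the joined region is called reproducible here when all 4 OE libraries had a peak in it and no KO ChIP or input peak touched it. Of 10375 such regions, 43 were assigned to 23 of the 40 genes, 57.5%, against 30.3% of all genes (6620 of 21883). The remaining 17 genes had none, 14 had 1, 6 had 2, Smad7 and Tgfbr3 had 5 each and Bmp7 had 7. The pathway genes also occupy more of the genome, with a median length of 46.2 kb against 17.2 kb for all genes. The stretch of genome whose summits would be assigned to them had a median of 137 kb against 46 kb. Per Mb of such stretches there were 7.82 reproducible regions at the pathway genes and 4.87 at all genes, and the share of gene length in the difference of percentages was not tested.

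By role, 6 of 14 ligand genes (42.9%), 6 of 10 receptor genes (60%), 6 of 8 SMAD genes (75.0%) and 5 of 8 antagonist and regulator genes (62.5%) had a reproducible region. They carried 13, 11, 13 and 6 regions. Each role was thus represented, with ligands nearest to the 30.3% of all genes. The number of genes depends on the rule: with summits within 100 bp of each other it was 12 (30%, against 16.8% of all genes) and with lists of equal length 9 (22.5%, against 15.7%). With a region shared by any 2 OE libraries it was 40, against 74.9% of all genes.

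**Figure D2:**
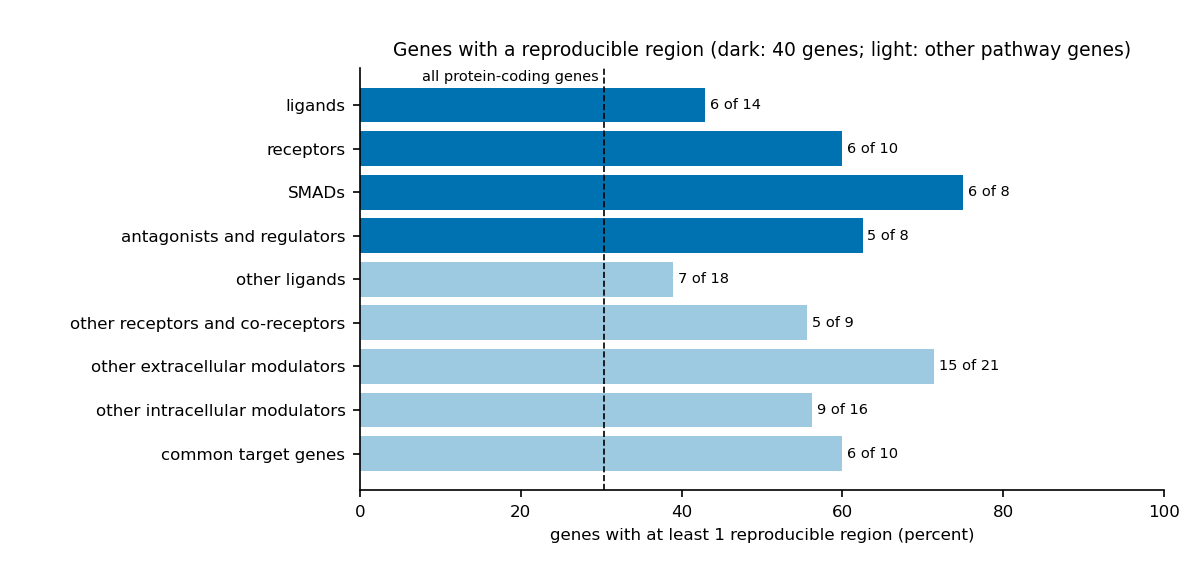
Percent of genes with at least 1 reproducible region (horizontal axis) for the 4 roles of the 40 genes (dark bars) and 5 lists of other pathway genes (light bars), with counts printed beside the bars. The dashed line marks 30.3% of all protein-coding genes, and every bar ends to its right, from 38.9% for the other ligands to 75.0% for the SMADs.

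Among the ligands 4 of 9 BMP genes (44.4%) and 2 of 5 TGF-beta and activin subunit genes (40%) had a region. Bmp7, a ligand needed for kidney and eye development, had 7 reproducible regions spread over its gene body and both flanks. The one ranked highest by mean percentile of fold over the 4 libraries, at chr2:172885676-172886290, lay 18118 bp inside the gene from its nearer end and had folds of 17.97, 54.5, 56.6 and 17.7 in OE libraries 1 to 4 (36.7 ± 21.8, SD, n = 4). OE libraries 2 and 3 gave the high values and libraries 1 and 4 the low ones. Of the other 6, a region 218 bp inside the opposite end of the gene, at chr2:172939847-172940982, had folds of 27.4, 9.72, 11.3 and 27.2, with the libraries in the reverse order. The other 5 Bmp7 regions had mean folds of 11.0 to 19.9.

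At Bmp4, which encodes the ligand that induces mesoderm and ventral fates, the region at chr14:46382933-46383689 lay 206 bp outside the far end of the gene, 7350 bp downstream of the start. Its folds were 13.97, 39.7, 33.1 and 13.6 (25.1 ± 13.3, SD, n = 4), again higher in OE libraries 2 and 3. With all annotated genes in place of protein-coding ones, Bmp4 had no reproducible region and the other 22 genes kept theirs. Although close to an end of the gene, it is not close to the annotated start, where OE peaks came from 3 libraries.

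Inhbb, which encodes the beta-B subunit of activin and inhibin, had its region at chr1:119419886-119422117, inside the gene and 1306 bp past the start. The folds there were 23.96, 5.33, 6.99 and 15.4 (12.9 ± 8.58, SD, n = 4), so that OE libraries 1 and 4 were the high ones. Bmp6, the gene of another BMP ligand, had 2 regions that differed in the same way. One, 3110 bp before the start at chr13:38342140-38343186, had folds of 10.5, 33.5, 20.7 and 5.90, and the other, 254 bp past the start at chr13:38345469-38346212, had 22.5, 4.39, 3.34 and 9.53. Libraries 2 and 3 were thus higher at the upstream Bmp6 region and libraries 1 and 4 at the start.

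The ligand genes Bmp8a and Tgfb2 had the weakest reproducible regions of their role. Bmp8a had folds of 5.49, 4.86, 5.88 and 5.90, close to each other, at a region 286 bp inside the gene. Tgfb2, which encodes the TGF-beta ligand with wide roles in heart and neural crest derivatives, had folds of 5.99, 2.66, 3.50 and 8.17, with the fold of library 2 at percentile 0.830 of its own list. In OE libraries 2 and 3 the Bmp8a region stood mid-list, at percentiles 46.7 and 58.9.

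Among the receptors the strongest region of all 40 genes was found. Tgfbr3 encodes betaglycan, a co-receptor that presents TGF-beta ligands and binds inhibin. Its leading region, at chr5:107146977-107148917, lay inside the gene and 41753 bp from the nearer end, and had folds of 51.4, 237, 233 and 41.3 in OE libraries 1 to 4 (141 ± 109, SD, n = 4). In every OE library this put it in the top 5% of the library's own peaks, at percentiles 96.1, 99.8, 99.8 and 95.6. The next region, at chr5:107149794-107153234 and also inside the gene, had folds of 19.96, 107, 75.6 and 19.1. The remaining 3 Tgfbr3 regions, 2 of them inside the gene and 1 lying 12019 bp outside it, had mean folds of 14.6 to 21.3.

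Tgfbr2, the gene of the type II receptor of TGF-beta, had 2 reproducible regions inside its body. The region 36491 bp past the start, at chr9:116138475-116139245, had folds of 21.5, 35.1, 19.9 and 11.8 (22.1 ± 9.67, SD, n = 4). At the start itself, 767 bp into the gene, the folds were 13.0, 22.6, 16.2 and 6.36. Both regions had their highest value in OE library 2 and their lowest in library 4.

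Acvr1b, which encodes a type I receptor of activin and Nodal, had a region at chr15:101173745-101175318 with its summit 252 bp past the start, and folds of 22.5, 5.64, 4.45 and 27.2 (14.9 ± 11.6, SD, n = 4). Tgfbr1, the gene of the type I receptor of TGF-beta, was occupied 280 bp past its start, with folds of 24.5, 4.86, 5.24 and 11.8. For Bmpr1a, whose upstream sequence is printed above, the summit lay 254 bp before a start and the folds were 23.5, 4.55, 3.50 and 14.5. At these 3 type I receptor genes OE libraries 1 and 4 gave the high values and libraries 2 and 3 the low ones, without overlap. Bmpr2, the type II receptor gene of the BMP branch, differed in that its region lay 14385 bp before the start, with similar folds of 11.5, 11.1, 9.22 and 8.63. Its start window also had a peak in 3 OE libraries, but no reproducible region overlapped that window.

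**Figure D3:**
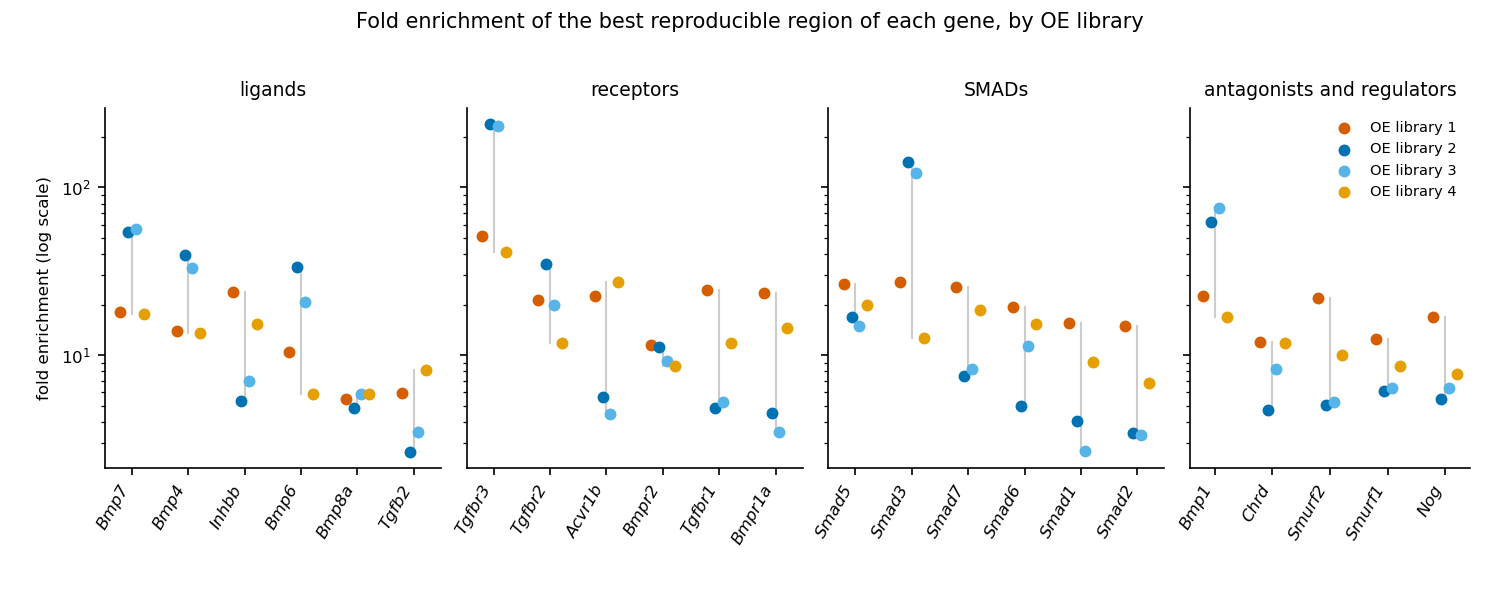
Fold enrichment (vertical axis, log scale, authors' values) of the leading reproducible region of each of the 23 genes that had one, by role, with 1 point per OE library and a grey line over their range. Tgfbr3 (51.4, 237, 233 and 41.3) stands highest, and genes such as Bmp7, Smad3 and Bmp1 have OE libraries 2 and 3 on top while Acvr1b, Tgfbr1 and Bmpr1a have libraries 1 and 4 on top.

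The SMAD genes with a region came from both receptor-regulated branches and from the inhibitory class. Smad5 had 2 regions. Its leading region, at chr13:56702048-56703567, covers the sequence printed above, with the summit 404 bp before the start, and had folds of 26.5, 16.9, 14.9 and 19.98 in OE libraries 1 to 4 (19.6 ± 5.03, SD, n = 4). In their own lists these folds stood at percentiles 87.4, 91.7, 89.7 and 83.5, high in every library. The other Smad5 region, 5602 bp before the start, had folds of 11.9, 46.1, 25.4 and 9.08.

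Smad3, the gene of a receptor-regulated SMAD of the TGF-beta and activin branch, had its leading region deep inside the gene at chr9:63707448-63708926, 49852 bp past the start. The folds were 27.4, 142, 122 and 12.7 (75.9 ± 65.3, SD, n = 4), higher in OE libraries 2 and 3. A second region, 1699 bp past the start, had folds of 21.0, 17.6, 15.6 and 11.4, with less spread between libraries.

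Smad7, which encodes the inhibitory SMAD that acts on both branches and is itself induced by the pathway, had 5 regions. The leading one, at chr18:75365907-75368252, had its summit 117 bp inside the lower end of the gene and folds of 25.5, 7.52, 8.26 and 18.6 (15.0 ± 8.63, SD, n = 4). A region 6333 bp outside the gene had the opposite order, with folds of 9.79, 48.0, 35.7 and 11.8. The other 3 Smad7 regions, 1 inside the gene and 2 lying 22884 and 24441 bp outside it, had mean folds of 7.73 to 12.9.

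Smad6, the other inhibitory SMAD gene, had 2 regions on either side of its start. The leading one, at chr9:64021874-64023456, lay 1055 bp before the start and had folds of 19.5, 5.02, 11.3 and 15.4 (12.8 ± 6.17, SD, n = 4). The second, 1249 bp past the start, had folds of 15.5, 2.98, 4.13 and 11.8. Neither overlapped the input peak in Smad6, which lies farther inside the gene.

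Weaker regions were found at Smad1, with its summit 65 bp past the start, and at Smad2, 777 bp inside an end of the gene. Smad1 had folds of 15.5, 4.07, 2.70 and 9.08, with the fold of library 3 at percentile 0.915 of its list, and Smad2, of the TGF-beta and activin branch, had 15.0, 3.45, 3.34 and 6.81. Both were highest in OE library 1, and in libraries 2 and 3 they stood in the lower part of the lists.

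**Figure D4:**
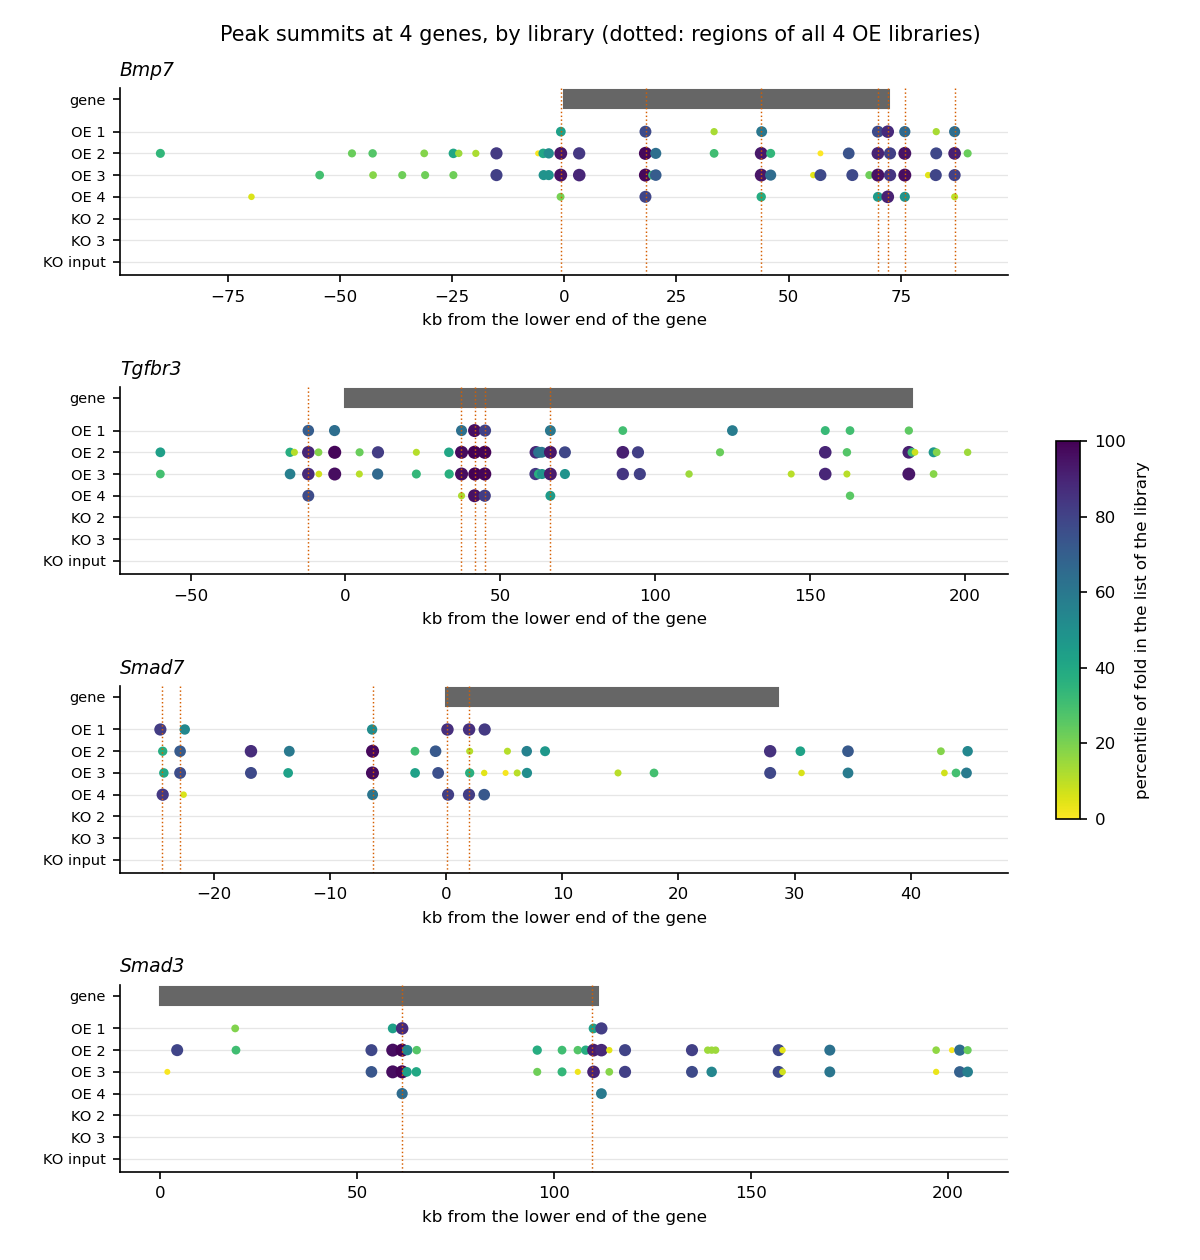
Peak summits at Bmp7, Tgfbr3, Smad7 and Smad3, as kb from the lower end of each gene (horizontal axis) for each library (rows), with the gene as a grey bar, the point's colour and size giving the percentile of fold in that library's list, and dotted lines at the reproducible regions. OE libraries 2 and 3 carry many summits that libraries 1 and 4 lack, and the KO and input rows hold none at these 4 genes.

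Of the extracellular antagonists and regulators, Bmp1 had the highest values. Its leading region lay 13147 bp outside the gene at chr14:70460926-70461903, with folds of 22.5, 61.7, 75.6 and 16.8 in OE libraries 1 to 4 (44.2 ± 29.0, SD, n = 4). The second Bmp1 region, 3213 bp outside the gene, had folds of 19.5, 77.1, 39.9 and 15.9. Both regions lie at the gene's flank, away from the input peak in its body.

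Chrd had its region at chr16:20732664-20733816, with the summit 9 bp past the start printed above, and folds of 12.0, 4.70, 8.26 and 11.8 (9.19 ± 3.45, SD, n = 4). The neighbouring gene Thpo overlaps this position in the annotation, so the region was counted at both genes. At Nog, the gene of the BMP antagonist noggin, the region lay 264 bp outside the gene and had folds of 17.0, 5.49, 6.36 and 7.72.

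The ubiquitin ligase genes Smurf1 and Smurf2, whose products mark SMADs and receptors for degradation, were both occupied at the start. Smurf2 had folds of 21.96, 5.02, 5.26 and 9.99 (10.6 ± 7.94, SD, n = 4, and a mean of 6.76 without OE library 1) at chr11:106920338-106921475, with the summit 34 bp before the start. Smurf1 had folds of 12.5, 6.11, 6.36 and 8.63 with the summit 219 bp past the start. In both genes OE libraries 1 and 4 were above libraries 2 and 3.

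The 17 genes without a reproducible region were Bmp2, Bmp3, Bmp5, Bmp8b, Bmp10, Tgfb1, Tgfb3 and Inhba among the ligands, Bmpr1b, Acvr1, Acvr2a and Acvr2b among the receptors, Smad4 and Smad9 among the SMADs, and Grem1, Fst and Bambi among the antagonists and regulators. All of them had a peak in OE libraries 2 and 3, and in each the best merged region was supported by 2 or 3 OE libraries. Over the whole set, 27 genes had a peak in all 4 OE libraries, 8 in 3 and 5 in 2. The matching shares of all protein-coding genes by number of libraries were not counted. Library by library, 47.2%, 80.6%, 77.5% and 37.4% of all genes had a peak in OE libraries 1 to 4. A peak in both libraries 2 and 3 therefore does not set these genes apart. A gene may have a peak in all 4 libraries without a region that all 4 share, as Bmp2 did.

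Inhba, which encodes the beta-A subunit of activin and inhibin, had the highest folds of these genes, with 7.49, 72.1 and 30.0 in OE libraries 1 to 3 at chr13:15935507-15936669, 68316 bp outside the gene, and no peak in library 4. Smad9, the third receptor-regulated SMAD of the BMP branch, was the one whose best region lacked OE library 3, with folds of 15.5, 2.82 and 8.63 in libraries 1, 2 and 4. Acvr2b, a type II activin receptor gene, had 9.48, 12.4 and 11.3 in OE libraries 1 to 3. At Bmp2 the best region was listed in OE libraries 2 and 3 with folds of 21.8 and 13.7, lying 28906 bp outside the gene. For Smad4, the gene of the SMAD that both branches share, OE libraries 1 to 3 gave 5.49, 5.02 and 6.36 at a region 151 bp outside the gene. At 16 of the 17 genes, all but Smad9, the best region was supported by OE libraries 2 and 3.

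For the BMP ligand Bmp5 the folds of OE libraries 2 and 3 were 17.1 and 12.7, and for Tgfb1 10.7 and 9.38. Among the antagonists, Bambi, the gene of a decoy receptor without kinase activity, had 9.09 and 8.60, Grem1, the gene of gremlin, had 6.27 and 7.15, and Fst, the gene of the activin-binding protein follistatin, had 4.39 and 4.13, all in OE libraries 2 and 3. Outside that region Fst also had a peak in OE library 1, with a fold of 11.0. The type I receptor gene Bmpr1b had 5.49, 5.96 and 6.52 in OE libraries 1 to 3. At Bmp3, Bmp8b, Bmp10, Tgfb3 and Acvr2a the folds of the best region lay between 3.50 and 6.99 in the libraries that listed it. OE library 4 was thus absent from the best region of 16 of these 17 genes. It was listed elsewhere at 3 of the 16. At Tgfb1 it shared with OE library 1 the site of the input peak. Bmp2 and Acvr2a each had a separate region shared by OE libraries 1 and 4, with folds of 9.98 and 10.9 at Bmp2 and of 9.98 and 8.17 at Acvr2a, above the 5.96 and 4.61 of OE libraries 2 and 3 at Acvr2a.

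The start window of Acvr1, a type I receptor gene with folds of 4.49, 6.90 and 7.47 at its best region in OE libraries 1 to 3, was touched by a region of all 4 OE libraries that was counted at the neighbouring gene Upp2, in whose body its summit lies. Only 1 OE library had a peak in the start window itself, which the joined region reaches. Acvr1 is therefore among the genes without a region by the rule used.

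The balance between the OE libraries differed with position. Of the 43 regions, 26 lay inside gene bodies (60.5%), and those outside lay a median of 3630 bp from the gene, against 8960 bp for all regions. Of all reproducible regions 57.5% lay inside gene bodies. That total includes regions too far from any gene to be assigned, which lowers its share, while the 43 were all assigned to a gene. Whether the pathway regions lay inside genes more or less often than other assigned regions was not tested. A region within 1 kb of an end of its own gene was found at 15 of the 40 genes (37.5%), against 14.4% of all genes. Measured to the end of any protein-coding gene, 16 of the 43 regions lay within 1 kb (37.2%). The share of all reproducible regions was 30.6%, which the unassigned regions lower in the same way.

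At those 16 regions the mean log2 fold of OE libraries 1 and 4 minus that of OE libraries 2 and 3 had a median of 1.42 (range -1.73 to 2.30), and OE libraries 1 and 4 were higher at 13. The exceptions were the regions at the far end of Bmp4, at the lower end of Bmp7 and at the start of Tgfbr2. At the 27 regions farther away the median was -0.73 (range -2.81 to 2.51), and OE libraries 1 and 4 were higher at 8. Over all reproducible regions the medians were 1.24 near gene ends, with OE libraries 1 and 4 higher at 78.8% of 3170, and -1.20 farther away, with 27.5% of 7205. The regions of the pathway genes thus had the same signs as the regions of the whole series.

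In percentiles of each library's own list the same comparison gave a median of 8.23 near gene ends and of -20.8 farther away. Near gene ends OE libraries 1 and 4 were higher at 9 of 16 (56.2%), fewer than the 13 by log2 fold. Farther away they were higher at 7 of 27 (25.9%), against 8 by log2 fold. Over all reproducible regions these medians were 7.18 (higher at 59.0%) and -27.4 (higher at 12.0%). Where an annotated start was known, 12 regions of 12 genes had their summit within 1 kb of it and OE libraries 1 and 4 were higher at 11 (median log2 difference 1.36), while at 10 regions farther from the start they were higher at 3 (median -0.41). These libraries differ in background pileup as given above, and the part of depth or of any other property of the libraries in this difference was not tested.

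**Figure D5:**
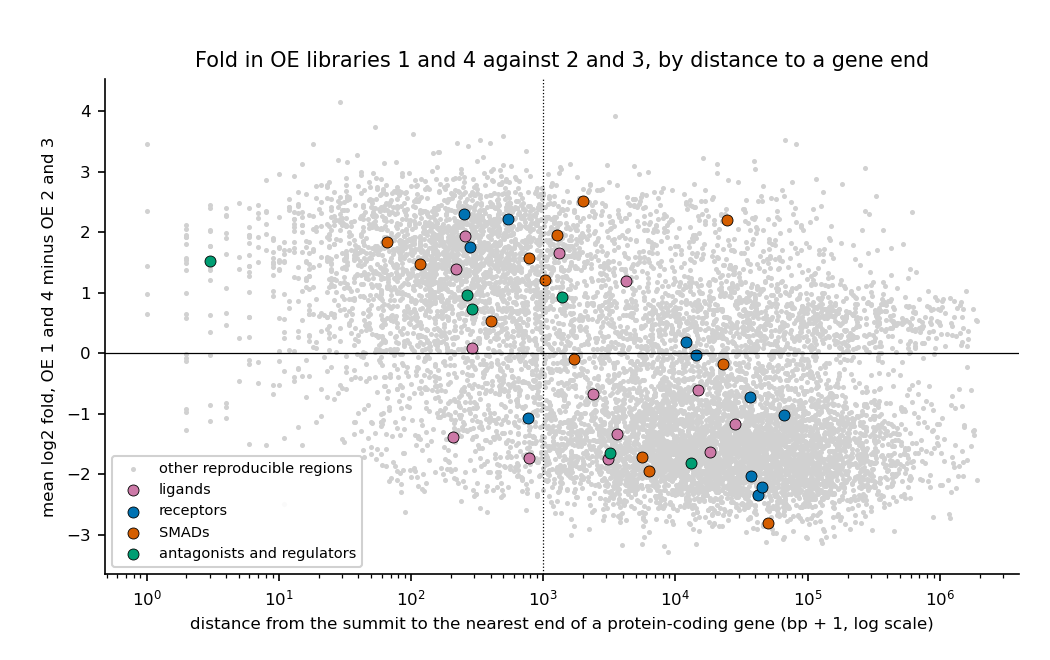
Mean log2 fold of OE libraries 1 and 4 minus that of OE libraries 2 and 3 (vertical axis) against the distance from the summit to the nearest end of a protein-coding gene (horizontal axis, bp + 1, log scale), for the 43 regions of the pathway genes (coloured by role) and the other reproducible regions (grey). Left of the dotted line at 1 kb 13 of 16 coloured points lie above 0, and right of it 8 of 27.

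Of 74 further genes of the pathway, in 5 lists, 42 had a reproducible region (56.8%, against 57.5% of the 40 genes and 30.3% of all genes), 72 regions in all. By list they were 7 of 18 other ligands (38.9%), 5 of 9 other receptors and co-receptors (55.6%), 15 of 21 other extracellular modulators (71.4%), 9 of 16 other intracellular modulators (56.2%) and 6 of 10 common target genes (60%). The leading regions of the 40 genes had a median mean percentile of 66.6, and those of the 74 had 82.2. None of these genes had a peak in KO library 3, and Usp15, the gene of a deubiquitinase that acts on SMADs, was the one with a peak in KO library 2. In the KO input 9 of the 74 had a peak (12.2%), against 7.5% of the 40 genes and 5.28% of all genes. One of them, Id3, of the family of Id1, had its highest OE folds of 312 and 186 in libraries 1 and 4 outside its 3 reproducible regions, of which the leading one had 12.0 and 7.72 in those libraries, and 1 region of all 4 OE libraries at Id3 was removed because a control peak touched it.

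The highest of these further regions belonged to Id1, a textbook target of BMP signalling that encodes an inhibitor of basic helix-loop-helix dimers. At chr2:152726401-152730730, 6464 bp outside the gene, its folds were 106, 380, 352 and 83.1 in OE libraries 1 to 4 (230 ± 157, SD, n = 4), above every region of the 40 genes in each library. Id2, of the same family, had 92.3, 11.9, 13.99 and 55.8, with OE libraries 1 and 4 on top and a mean of 43.5, or 27.2 without OE library 1. Ski, the gene of a SMAD corepressor, had 55.4, 188, 230 and 30.4 inside its body.

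Pmepa1, which encodes a membrane protein that limits TGF-beta signalling, had a region 62714 bp outside the gene with folds of 57.4, 116, 114 and 40.9. The Nodal antagonist gene Lefty1 had 59.9, 108, 164 and 49.9 at a region 437 bp outside it, and its neighbour Lefty2 had 15.5, 54.2, 69.6 and 13.6. Nbl1, the gene of a secreted BMP antagonist, had 37.4, 155, 131 and 24.5. Apart from Id2, all of these had higher folds in OE libraries 2 and 3 than in libraries 1 and 4.

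Ltbp4, which encodes a matrix protein of the latent TGF-beta binding protein family, had folds of 25.5, 85.4, 82.3 and 30.0. Rgma, the gene of a BMP co-receptor, had 28.9, 121, 105 and 23.6 at a region 81974 bp outside it. Cfc1, the gene of a Nodal co-receptor, had 12.0, 26.3, 31.8 and 15.0 inside its body, at a position that the gene Prss40 also covers. All 3 had their high values in OE libraries 2 and 3.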

How the data were processed

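The submitters' processing notes name Trimmomatic, BWA, Picard and MACS2 and the builds mm10 and GRCm38.p5. Tool versions, settings and the caller's control were not given in the sources used here, and they can change both the peaks listed and their folds. The deposited files are peak lists that the authors made separately for every library. For each peak the authors deposited a fold over local background (a ratio). They also deposited −log10 p-values and −log10 q-values, with q at most 0.01. The deposited score repeats the q-value in rounded form and entered no result.

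Software was Python 3.11.15 with numpy 2.4.6, pandas 2.3.3, scipy 1.17.1 and matplotlib 3.10.9. Chromosomes 1 to 19, X and Y were used. From fold and p-value together, a whole-number pileup and its background were recovered within 0.05 for 91.7% to 100% of peaks per library. Joined OE regions took the summit of their strongest supporting peak by percentile of fold in its own list. A summit inside several genes counted at each. Gene ends were taken from RefSeq on GRCm38.p6, and starts and promoter windows from another RefSeq table that held 28 of the 40 genes, so distances to a gene end were used for all. The planned search for E-boxes at summits was not run, because no genome sequence was used here, and promoter windows were searched instead. The depth in reads is unknown, since the lists hold no read totals.

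Groups follow the sample titles. OE and KO libraries were compared by exact two-sided permutation of one value per library. The 40 genes, the lists of further genes and the tests were chosen with earlier results of these data known. Genes were named as the 3 leading genes of each role by mean percentile of fold, the 2 leading genes of each further list, those with a KO or input peak and the 3 with most regions. Other genes of the set are given so that every gene with a region has its values. The procedures were tested on simulated data. Alternatives varied the number of libraries, the q-value limit, the overlap, list lengths, distances, the annotation and the replicates.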

Additional observations from a re-analysis of the deposited data

How the results depend on the processing

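The count of 23 of the 40 genes and the 43 regions rest on the rule that all 4 OE libraries share a region. With 3 of 4 libraries there were 71 regions at 31 genes (43.1% of all genes), with 2 of 4 there were 246 at 40 genes (74.9% of all genes), and with OE libraries 2 and 3 alone 241 at 40 genes (74.3% of all genes). A −log10 q-value of at least 10 left 27 regions, gene bodies alone 26, summits within 100 bp of each other 24 regions at 12 genes (16.8% of all genes), and lists shortened to equal length 21 regions at 9 genes (15.7% of all genes), which were Bmp1, Bmp4, Bmp6, Bmp7, Smad3, Smad5, Smad7, Tgfbr2 and Tgfbr3. In each of these settings the share of the 40 genes stayed above that of all genes. With each OE library left out in turn there were 23 to 30 genes (30.6% to 40.8% of all genes) and 44 to 64 regions, and the fullest set came without OE library 4. OE libraries 1 and 4 alone, a choice made after seeing the data, gave 26 genes (33.4% of all genes) and 49 regions. With all annotated genes there were 22 genes (16.6% of all) and 37 regions, and Bmp4 was the gene lost. For OE against KO libraries the difference in log2 peaks ranged from 6.37 to 8.33 and that in genes with a peak from 31.2 to 40.0 over 10 alternatives each, with exact permutation p of 0.0667 to 0.5. Leaving out each replicate gave differences of 6.78 to 7.66 and of 34.0 to 38.3. With the replicate number as a block (numbers 2 and 3) the differences were 8.33 and 40.0, with an exact p of 0.5, the smallest that pairs of this number allow. The labels do not say that equal numbers mark a shared batch. Deviations of equally numbered libraries had a correlation of 0.00179 over 18035 genes. KO libraries 2 and 3 had a peak at only 0.21% and 0.096% of all genes. With so few KO peaks this correlation cannot show whether a batch was shared. Of the mean folds of named genes, those of Smurf2 (6.76, against 10.6) and Id2 (27.2, against 43.5) moved by over 1.5 times without OE library 1, and no other did without any 1 library.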
